A study of Mus musculus with 6 samples.

Results

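The genes that make, destroy and read out cyclic AMP (cAMP) were examined in cartilage cells, primary chondrocytes, of neonatal A2ARKO and WT mice. The 45 genes were chosen by symbol: alpha subunits of the Gs and Gi proteins, adenylyl cyclases, subunits and 1 inhibitor of protein kinase A (PKA), phosphodiesterases, Epac exchange factors, 1 anchoring protein, CREB-family factors, their coactivators, salt-inducible kinases and 5 known cAMP-responsive targets. All 45 are among the 47480 rows of the deposited expression table, and 39 of them reached the level needed for testing, 1 FPKM (fragments per kilobase of gene and per mega of fragments) in at least 3 libraries. The 6 genes below it were Pde4c, Pde8b, Pde10a, Rapgef4, Nr4a3 and Ppargc1a. In A2ARKO mice the gene of the adenosine receptor A2a, Adora2a, is deleted, and the line was bred on a C57BL/6 background. WT mice were C57BL/6 and were raised in the same facility. RNA of each of the 3 libraries per genotype came from trypsinized chondrocytes pooled over 1 whole litter, so a replicate is a litter pool, and no treatment separates the groups. The labels name neither the deleted part of the gene nor a promoter or Cre line, and give no sex or litter size.

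The receptor encoded by Adora2a couples to Gs, which stimulates adenylyl cyclases to make cAMP, while Gi proteins restrain several of these enzymes. cAMP frees the catalytic subunits of PKA from the regulatory subunits, and phosphodiesterases degrade it. PKA phosphorylates CREB and also inhibits the salt-inducible kinases, which otherwise hold the CREB coactivators of the CRTC family in the cytoplasm. In cartilage, the receptor for parathyroid hormone-related protein signals through Gs to delay chondrocyte maturation, and Sik3 is needed for chondrocyte hypertrophy in mice. CREB binds the cAMP response element (CRE), whose full palindrome is TGACGTCA and whose short form is TGACG. The immediate early genes Nr4a1, Nr4a2 and Nr4a3, which encode orphan nuclear receptors, are textbook targets of this element.

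Upstream sequences of the 3 NR4A genes are shown because their levels were lower in every A2ARKO library, and those of Prkar1b and Adcy7 because these were the members past the test. Each run is the 250 bases before a RefSeq transcription start on GRCm38.p6, the assembly also named mm10, written 5′ to 3′ on the gene's strand. Capitals mark TGACG or its reverse complement CGTCA. The windows are chr15:101266596-101266845 (plus strand) for Nr4a1, chr2:57124004-57124253 (minus) for Nr4a2, chr4:48045055-48045304 (plus) for Nr4a3, chr5:139150002-139150251 (minus) for Prkar1b and chr8:88282742-88282991 (plus) for Adcy7.
Nr4a1: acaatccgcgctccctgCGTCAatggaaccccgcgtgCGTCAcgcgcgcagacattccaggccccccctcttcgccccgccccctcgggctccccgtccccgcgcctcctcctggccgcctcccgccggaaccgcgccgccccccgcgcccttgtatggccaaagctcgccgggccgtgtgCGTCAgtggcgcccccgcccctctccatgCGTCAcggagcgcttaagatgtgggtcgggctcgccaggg
Nr4a2: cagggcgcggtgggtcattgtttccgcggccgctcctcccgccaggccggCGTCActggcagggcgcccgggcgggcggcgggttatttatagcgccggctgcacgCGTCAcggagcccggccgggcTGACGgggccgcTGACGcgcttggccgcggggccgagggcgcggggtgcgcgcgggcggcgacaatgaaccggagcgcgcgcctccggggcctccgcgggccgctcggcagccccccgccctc
Nr4a3: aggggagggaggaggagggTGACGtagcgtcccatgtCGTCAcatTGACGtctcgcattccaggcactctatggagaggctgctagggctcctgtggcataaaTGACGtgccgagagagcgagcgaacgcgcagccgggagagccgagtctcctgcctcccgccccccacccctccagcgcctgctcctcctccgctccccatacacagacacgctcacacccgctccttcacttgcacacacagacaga
Prkar1b: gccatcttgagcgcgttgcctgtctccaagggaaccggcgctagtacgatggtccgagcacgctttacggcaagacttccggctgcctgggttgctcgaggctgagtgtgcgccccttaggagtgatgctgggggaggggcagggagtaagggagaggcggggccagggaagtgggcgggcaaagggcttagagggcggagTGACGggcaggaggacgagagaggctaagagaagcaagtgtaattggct
Adcy7: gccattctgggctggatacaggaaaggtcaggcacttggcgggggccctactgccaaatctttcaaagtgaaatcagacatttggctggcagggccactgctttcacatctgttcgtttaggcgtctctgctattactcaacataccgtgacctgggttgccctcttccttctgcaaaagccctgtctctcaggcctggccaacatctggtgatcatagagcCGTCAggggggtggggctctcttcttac
Each NR4A window holds 4 short elements and no full palindrome, while the windows of Prkar1b and Adcy7 hold 1 each. Prkar1b and Adcy7 have several annotated starts, and the window shown for each is the only one with a short element. The 1 element in each therefore depends on the start shown. In Nr4a1 the elements begin 233, 213, 69 and 40 bases before the start, and in Nr4a2 200, 144, 123 and 111 bases before it. In Nr4a3 they begin 231, 213, 205 and 147 bases before it.

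RefSeq windows of 300 bases (250 before to 50 after a start) were at hand for 36 of the 45 members, and both strands were searched. The windows used here do not include Adcy6, Akap12, Crem, Crtc2, Gnai2, Pde3a, Pde3b, Pde7a or Sik1. The short element occurred in 23 of these 36 genes (63.9%), against 23.0% of 27025 genes with a window and 36.6% of 8734 tested genes with one. The 36 members had 67 windows and the 27025 genes had 32851, so a member had more chances of a match. Counted by window, the element occurred in 40.3% of member windows and 20.8% of all windows. A count by window was not made for the tested genes alone, and some members were chosen as known cAMP-responsive targets. The 36 also include members below the level for testing. A full palindrome counts as 2 short elements, and it occurred in 1 member, Prkar1a, which is 2.78% of the members against 3.63% of the tested genes. Genes with 4 or more short elements were Nr4a1, Nr4a2 and Nr4a3 among the members (8.33%), and 56 of the tested genes with a window (0.641%). These matches describe letters in a window and not binding.

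The deletion was visible at the targeted gene. Adora2a had 0.41, 0.54 and 0.66 FPKM in A2ARKO libraries 1, 2 and 3, against 9.36, 7.31 and 3.46 FPKM in WT libraries 1, 2 and 3. Its mean was 12.5-fold lower in A2ARKO, and the log2 fold change was -2.25 (SE 0.31, limma adjusted p = 0.0203), on the log2(FPKM + 1) scale used throughout, with p-values adjusted by Benjamini-Hochberg over 11595 genes. Adora2a entered the test only through its WT values, and with no filter on low values its limma adjusted p was 0.0533. By an exact permutation test (two-sided) p was 0.1, and no smaller value is possible with 3 libraries a group. Of all tested genes 5.08% had an adjusted p below 0.05, made up of 3.31% that rose and 1.77% that fell in A2ARKO. Of these calls 65.2% were higher in A2ARKO, and 51.2% after the libraries were rescaled to the same sum. In 32.9% of all tested genes the values of the groups did not overlap (18.0% higher, 14.9% lower).

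The libraries differed in more than genotype. Summed chondrocyte markers, led by the collagen gene Col2a1, ranged from 2269 to 6392 FPKM in A2ARKO and from 489 to 25910 FPKM in WT, with WT library 1 the highest and WT library 3 the lowest. All 13 chondrocyte markers were detected in every library, and the aggrecan gene Acan had 41.03, 113.80 and 176.79 FPKM in A2ARKO libraries 1, 2 and 3, against 877.84, 11.56 and 3.55 FPKM in WT libraries 1, 2 and 3. Summed macrophage markers (15 genes) were 27.9 to 55.9 FPKM in A2ARKO and 139.5 to 1988 FPKM in WT, with WT library 2 the highest, and that library also stood apart on skeletal muscle markers (1348 FPKM against 8.48 to 33.1 in the other 5). Adipocyte markers (98.8 to 252.4 FPKM in A2ARKO and 58.7 to 89.8 in WT) were higher in A2ARKO without overlap as a sum, and all 7 genes had a fold change above 0. Summed erythroid markers did not overlap but were near 0 (0.05 to 0.14 FPKM in A2ARKO and 0 to 0.03 FPKM in WT), and none was tested. The sums of 2 more lists did not overlap either, but their genes were split. Summed dissociation response genes were 181 to 195 FPKM in A2ARKO and 103.9 to 167.7 FPKM in WT, mainly through Junb, Socs3 and Jun, and of the 11 tested 6 had a fold change above 0 and 5 below it. Summed fibroblast markers were 2908 to 4064 FPKM in A2ARKO and 5268 to 6913 FPKM in WT, mainly through the collagen gene Col1a1 (1623 ± 673.9 FPKM in A2ARKO and 4108 ± 1004 FPKM in WT). Of the 7 fibroblast markers tested 4 had a fold change above 0, and Dcn, the decorin gene, averaged 696.3 ± 339.7 FPKM in A2ARKO and 302.3 ± 108.2 FPKM in WT. The part of these differences in the results below was not tested unless a value is given, and in pooled cells fewer cells of a type and less RNA per cell cannot be told apart. Depth, read from the smallest increments of FPKM, was 51.5 to 58.1 M (mega) reads in A2ARKO and 41.6 to 52.6 M in WT. Reads computed per gene at these depths summed to more than the depth itself in every library (56.5 to 64.9 M in A2ARKO and 51.6 to 59.2 M in WT), so the approximate reads given below for single genes can be too high.

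**Figure D1:**
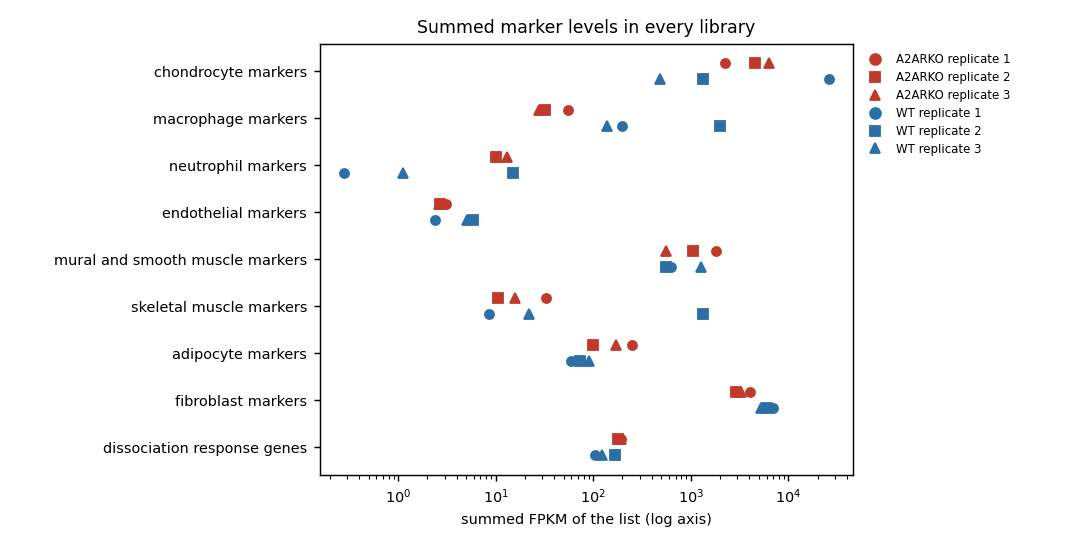
Summed FPKM of each cell-type or stress marker list except the erythroid list (log axis) in every library, with A2ARKO points above WT points in each row. Macrophage and fibroblast sums of the A2ARKO libraries lie below all WT sums, adipocyte and dissociation response sums lie above them, and WT libraries 1 and 2 stand apart on chondrocyte and on muscle and macrophage markers.

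Few members passed the test. Of the 39 tested members 1 rose in A2ARKO (Prkar1b, a regulatory PKA subunit), 1 fell (Adcy7, an adenylyl cyclase) and 37 did not pass the limma test, so 5.13% were called against the 5.08% of all tested genes. At an unadjusted p below 0.05 there were 14 of 39 members, against 24.7% of all tested genes. The groups did not overlap for 17 of the 39 (43.6%, 9 higher and 8 lower in A2ARKO), against 32.9% of all tested genes. After rescaling of the libraries to the same sum this held for 4 higher and 9 lower members, against 27.8% of all tested genes. The median log2 fold change of the members was -0.03, with 18 above and 21 below 0, and the median of all tested genes was 0.002. The median absolute log2 fold change was 0.21 for the members and 0.18 for all tested genes. WT libraries varied more than A2ARKO libraries: the median SD on the log2 scale over tested members was 0.0986 in A2ARKO and 0.259 in WT, and the SD was larger in WT for 31 of 39 (79.5%). Over all tested genes the median SD was 0.0967 in A2ARKO and 0.192 in WT, and the SD was larger in WT for 78.9%.

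**Figure D2:**
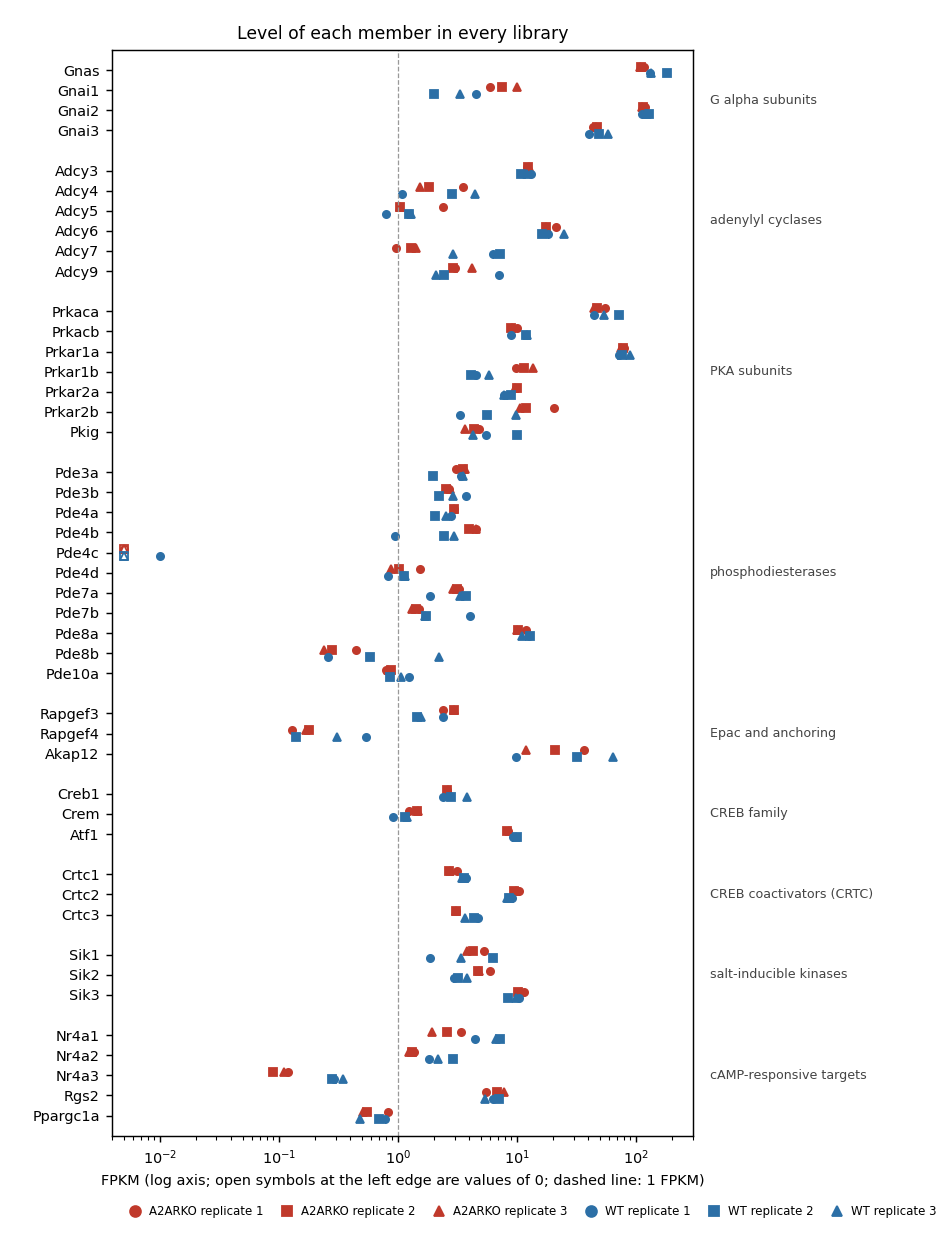
FPKM of each of the 45 members in every library on a log axis, grouped by role, with A2ARKO points above WT points in each row. Gnas, Gnai2 and Prkar1a are the most abundant, Pde4c is at or near 0 throughout, and the A2ARKO points of Adcy7, Nr4a1, Nr4a2 and Nr4a3 lie left of all WT points.

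**Figure D3:**
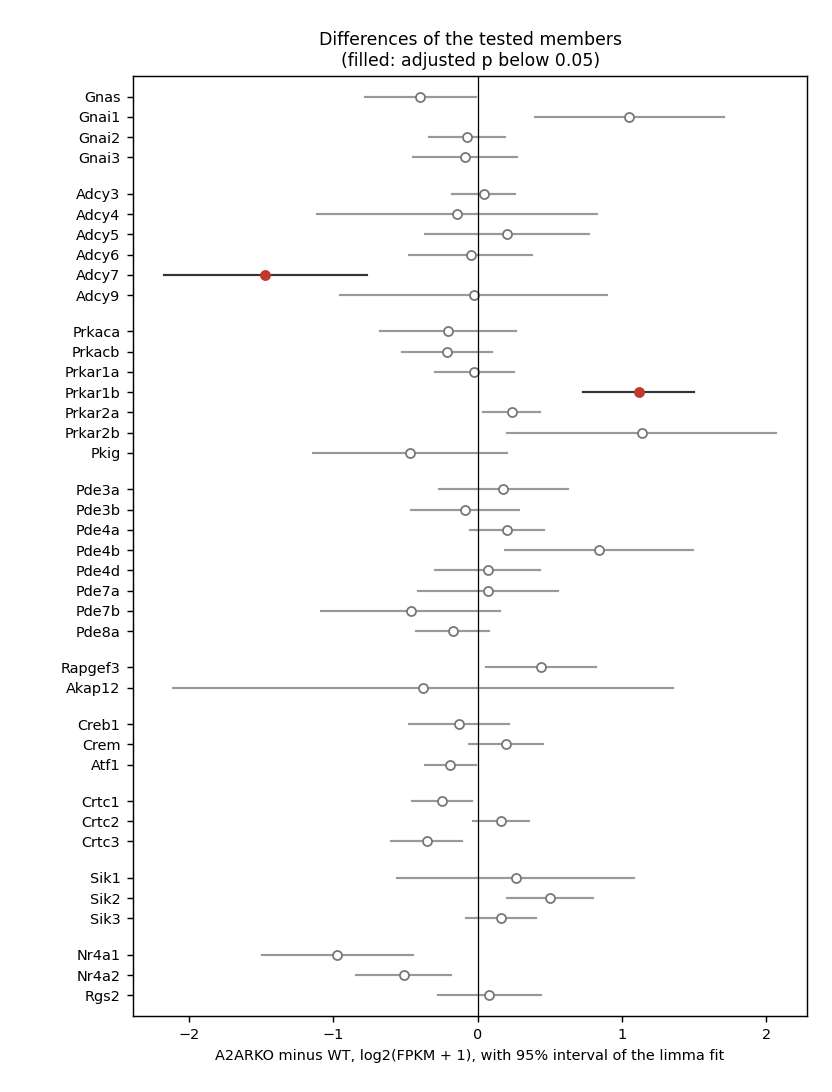
Log2 fold change of the 39 tested members, A2ARKO minus WT, with the 95% interval of the limma fit as a line. The filled points are Adcy7, below 0, and Prkar1b, above 0, and the widest interval is that of Akap12.

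Among the 4 G alpha subunits none passed the limma test. Gnas and Gnai1, 2 of the 4, had an unadjusted p below 0.05, beside 24.7% of all tested genes. Gnas, which encodes the stimulatory subunit that this adenosine receptor engages, had 116.96, 109.85 and 109.05 FPKM in A2ARKO libraries, against 131.10, 182.32 and 134.89 FPKM in WT libraries. Every A2ARKO value lay below every WT value, and the log2 fold change was -0.40 (SE 0.16, limma adjusted p = 0.189). Of the Gnas exon bases 22% also lie in Nespas and Gm20721 on the opposite strand, and the strand setting of the counting is not given. Gnai1, an inhibitory subunit and the least abundant of the 4, had 6.01, 7.44 and 10.02 FPKM in A2ARKO libraries, against 4.58, 2.01 and 3.36 FPKM in WT libraries. Here every A2ARKO value lay above every WT value, at a log2 fold change of 1.05 (SE 0.27, limma adjusted p = 0.0804), and the adjusted p was 0.0470 without WT library 1. The abundant inhibitory subunits overlapped between the groups. Gnai2 averaged 116.2 ± 4.12 FPKM in A2ARKO and 122.2 ± 8.60 FPKM in WT (SD, n = 3 each), a log2 fold change of -0.07 with a 95% interval from -0.33 to 0.19. For Gnai3 the means were 45.7 ± 2.03 FPKM in A2ARKO and 49.1 ± 9.07 FPKM in WT, a log2 fold change of -0.08 (interval -0.44 to 0.27). Gnas made up 39.7% ± 0.89 of the summed FPKM of the 4 genes in A2ARKO and 45.9% ± 4.09 in WT.

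Adcy7 was the adenylyl cyclase that fell. This membrane cyclase, whose activity is enhanced by G beta-gamma subunits and which is prominent in blood and immune cells, lies at chr8:88272403-88329962 on the plus strand (mm10, GENCODE M21). It had 0.97, 1.29 and 1.42 FPKM in A2ARKO libraries, against 6.30, 7.17 and 2.89 FPKM in WT libraries, from about 336 to 2406 reads per library. The groups did not overlap, and the WT values spread more widely than the A2ARKO values. The mean was 4.45-fold lower in A2ARKO (1.23 ± 0.23 FPKM in A2ARKO and 5.45 ± 2.26 FPKM in WT), at a log2 fold change of -1.47 (SE 0.29, limma adjusted p = 0.0461). Without WT library 3 the adjusted p was 0.00999, and without any other single library it lay between 0.0671 and 0.173. With no filter on low values it was 0.105. Macrophage markers lay on the same side, and 10 of the 11 tested had a fold change below 0. C1qb, a complement gene typical of macrophages, had 0.29, 0.11 and 0.03 FPKM in A2ARKO libraries, against 10.18, 109.69 and 2.99 FPKM in WT libraries, and C1qa and Aif1 were listed at 0 in A2ARKO library 3. Among the WT libraries Adcy7 had the same order as the marker sum but not the same spacing: WT library 2 held 7.17 FPKM at a sum of 1988 FPKM, and WT library 1 held 6.30 FPKM at 198.6 FPKM. Among the A2ARKO libraries the order was the opposite, with Adcy7 lowest in library 1, where the sum was highest. The part of macrophage RNA in the Adcy7 difference was not tested.

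The more abundant cyclases did not pass the test, and their groups overlapped. Adcy6, which is inhibited by Gi and calcium, was the most abundant with 18.9 ± 2.27 FPKM in A2ARKO and 19.8 ± 4.61 FPKM in WT (log2 fold change -0.05, interval -0.48 to 0.38). Adcy3, a calmodulin-regulated cyclase, averaged 12.4 ± 0.28 FPKM in A2ARKO and 12.1 ± 1.13 FPKM in WT, and its interval of -0.17 to 0.26 was the narrowest of the family (log2 fold change 0.04, and -0.07 after rescaling). Of its exon bases 22.1% also lie in Cenpo on the opposite strand. Adcy4, Adcy5 and Adcy9 had log2 fold changes of -0.14, 0.21 and -0.03, with intervals that each spanned more than 1 log2 unit. The 6 cyclases summed to 39.7 ± 3.51 FPKM in A2ARKO and 45.1 ± 3.75 FPKM in WT. Adcy7 contributed 3.13% ± 0.79 of that sum in A2ARKO and 12.4% ± 5.85 in WT.

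Prkar1b was the member that rose. It encodes the regulatory subunit RI beta of PKA, known mainly from the nervous system, and lies at chr5:139017306-139150001 on the minus strand (mm10). It had 9.88, 11.46 and 13.71 FPKM in A2ARKO libraries, against 4.56, 4.14 and 5.86 FPKM in WT libraries. The lowest A2ARKO value was above the highest WT value. The means were 11.7 ± 1.93 FPKM in A2ARKO and 4.85 ± 0.90 FPKM in WT, 2.41-fold higher in A2ARKO, with a log2 fold change of 1.116 (SE 0.16, interval 0.73 to 1.5, limma adjusted p = 0.0213). Leaving out WT library 1 or WT library 3 kept it past the threshold (adjusted p 0.0350 and 0.0208), while leaving out WT library 2 gave 0.0553 and leaving out A2ARKO libraries 1, 2 and 3 gave 0.0557, 0.106 and 0.0867. Its exons share 8.95% of their bases with the predicted gene Gm15672 on the same strand, and which of the genes such reads came from cannot be told. With no filter on low values the adjusted p was 0.0524.

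The other regulatory subunits did not pass the test. Prkar2b, the RII beta subunit typical of fat and brain, had 20.53, 12.06 and 10.69 FPKM in A2ARKO libraries, against 3.34, 5.60 and 9.79 FPKM in WT libraries. Its groups did not overlap but nearly met, and the log2 fold change of 1.14 came with an SE of 0.38 (limma adjusted p = 0.140). The 2 libraries with the highest adipocyte sums were A2ARKO libraries 1 and 3, at 252.4 and 170 FPKM, and Prkar2b was highest in A2ARKO library 1 and lowest of A2ARKO in library 3. The part of adipocyte RNA in Prkar2b was not tested, and its groups overlapped once the libraries were rescaled to the same sum. Prkar2a, the widely expressed RII alpha subunit, had 9.87, 10.07 and 9.63 FPKM in A2ARKO libraries, against 7.87, 8.93 and 7.87 FPKM in WT libraries, without overlap (log2 fold change 0.24, limma adjusted p = 0.143) but overlapping after that rescaling. Prkar1a, which encodes RI alpha, the most abundant of them, averaged 77.6 ± 1.68 FPKM in A2ARKO and 79.1 ± 8.72 FPKM in WT (log2 fold change -0.02, interval -0.29 to 0.25).

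The make-up of the regulatory pool was described as shares of summed FPKM, without a test. Prkar1a made up 68.4% ± 1.89 of regulatory subunit FPKM in A2ARKO and 80.5% ± 1.49 in WT, and Prkar1b made up 10.4% ± 2.11 in A2ARKO and 4.92% ± 0.49 in WT. Prkar2b made up 12.6% ± 4.03 in A2ARKO and 6.14% ± 2.46 in WT, and Prkar2a 8.69% ± 0.39 in A2ARKO and 8.46% ± 1.28 in WT. None of the A2ARKO shares overlapped the WT shares except those of Prkar2a. Shares within a library depend on each other, and the FPKM of Prkar1a itself overlapped (log2 fold change -0.02). In FPKM of single genes, 32.9% of all tested genes did not overlap between the groups. The catalytic genes Prkaca and Prkacb, which carry the kinase activity, each had a log2 fold change of -0.21, with limma adjusted p = 0.566 and 0.361. Prkaca averaged 48.6 ± 5.35 FPKM in A2ARKO and 57.1 ± 14.2 FPKM in WT. The ratio of summed regulatory to summed catalytic FPKM was 1.85, 1.997 and 2.06 in A2ARKO libraries and 1.64, 1.13 and 1.69 in WT libraries. The groups did not overlap, the mean ratio was 1.33-fold that of WT, and it stayed between 1.18-fold and 1.42-fold when each library was left out in turn. This ratio was chosen after the values were seen. Pkig, an inhibitor that binds free catalytic subunits, averaged 4.28 ± 0.57 FPKM in A2ARKO and 6.63 ± 3.05 FPKM in WT, with WT library 2 alone at 10.09 FPKM (log2 fold change -0.47, limma adjusted p = 0.354).

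**Figure D4:**
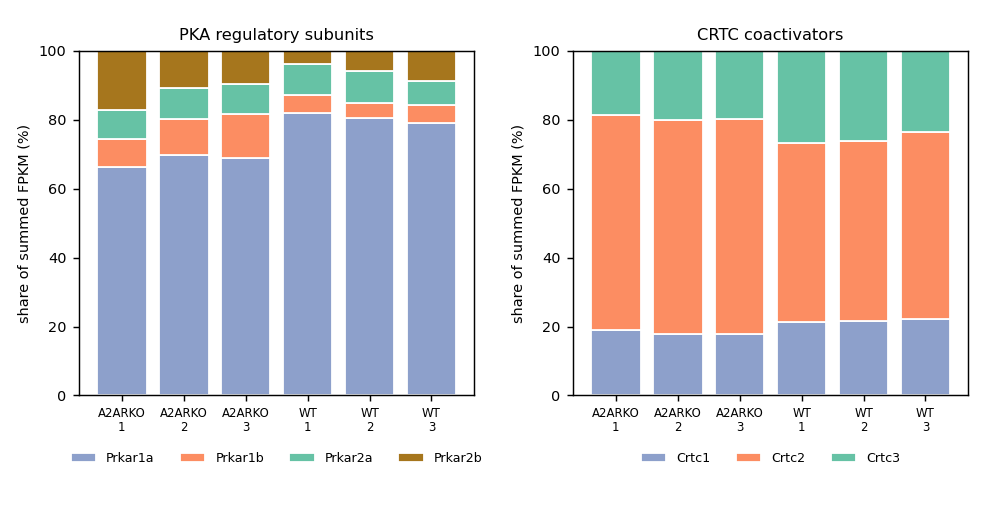
Share of each gene in the summed FPKM of the PKA regulatory subunits (left) and of the CRTC coactivators (right), in percent, with 1 bar per library and A2ARKO bars left of WT bars. Prkar1a takes 66.3% to 69.9% in A2ARKO libraries and 79.1% to 82.0% in WT libraries, and Crtc2 takes 62.0% to 62.5% in A2ARKO libraries and 52.0% to 54.0% in WT libraries.

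No phosphodiesterase passed the limma test, and 1 of the 8 tested had an unadjusted p below 0.05, beside 24.7% of all tested genes. The summed level of the phosphodiesterases was 31.0 ± 1.56 FPKM in A2ARKO and 31.3 ± 1.42 FPKM in WT. Pde8a, a high-affinity cAMP-specific enzyme, was the most abundant, with 12.01, 10.20 and 10.08 FPKM in A2ARKO libraries, against 12.66, 13.03 and 11.07 FPKM in WT libraries. Its groups overlapped and its log2 fold change was -0.17 (interval -0.43 to 0.08). Pde4b, a cAMP-specific enzyme that is inducible by cAMP itself, had 4.54, 3.94 and 4.58 FPKM in A2ARKO libraries, against 0.95, 2.44 and 2.97 FPKM in WT libraries. All A2ARKO values were above all WT values, with a log2 fold change of 0.84 (SE 0.27, limma adjusted p = 0.127, and 0.0528 to 0.317 with 1 library left out). It made up 14.04% ± 0.998 of phosphodiesterase FPKM in A2ARKO and 6.78% ± 3.31 in WT.

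None of the remaining phosphodiesterases had an unadjusted p below 0.05 in the limma fit. Pde4a had 2.95, 2.94 and 2.98 FPKM in A2ARKO libraries, against 2.78, 2.05 and 2.52 FPKM in WT libraries, higher without overlap but by 0.20 on the log2 scale (limma adjusted p = 0.293), and overlapping after rescaling. Pde7b, another cAMP-specific enzyme, had 1.5, 1.42 and 1.32 FPKM in A2ARKO libraries, against 4.02, 1.71 and 1.70 FPKM in WT libraries. Its groups did not overlap, but the distance came mainly from WT library 1 (log2 fold change -0.46, limma adjusted p = 0.320). Pde3a, Pde3b, Pde4d and Pde7a overlapped between the groups, with log2 fold changes of 0.18, -0.09, 0.07 and 0.07, of which those of Pde4d and Pde7a change sign under a different scaling. Of the untested genes, Pde4c was listed at 0 in every library but WT library 1, where it had 0.01 FPKM. Pde8b had 0.45, 0.28 and 0.24 FPKM in A2ARKO libraries, against 0.26, 0.58 and 2.21 FPKM in WT libraries, with only WT library 3 above 1 FPKM. Pde10a, which also degrades cyclic GMP, had 0.80, 0.88 and 0.83 FPKM in A2ARKO libraries, against 1.24, 0.86 and 1.06 FPKM in WT libraries, which overlapped.

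The PKA-independent arm and the anchoring protein did not pass the limma test. Among them Rapgef3 alone had an unadjusted p below 0.05, beside 24.7% of all tested genes. Rapgef3 encodes Epac1, a cAMP-activated exchange factor for the small G protein Rap, and had 2.40, 2.97 and 2.99 FPKM in A2ARKO libraries, against 2.42, 1.46 and 1.56 FPKM in WT libraries. The groups met between A2ARKO library 1 and WT library 1, the log2 fold change was 0.44 (SE 0.16, limma adjusted p = 0.155), and without WT library 1 the adjusted p was 0.0449. Rapgef4, which encodes Epac2, stayed low at 0.13, 0.18 and 0.17 FPKM in A2ARKO libraries, against 0.54, 0.14 and 0.31 FPKM in WT libraries. Akap12, a scaffold that ties PKA to the plasma membrane, had 36.38, 21.06 and 11.91 FPKM in A2ARKO libraries, against 9.80, 32.15 and 63.99 FPKM in WT libraries. The genotypes overlapped widely, and the difference was smaller than its standard error (log2 fold change -0.38, SE 0.71, limma adjusted p = 0.791).

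None of the 3 factors that bind the CRE passed the limma test. Atf1 had an unadjusted p below 0.05, beside 24.7% of all tested genes. Creb1 had 2.59, 2.61 and 2.66 FPKM in A2ARKO libraries, against 2.38, 2.81 and 3.82 FPKM in WT libraries, which overlapped (log2 fold change -0.13, interval -0.48 to 0.22). Atf1, the most abundant of the 3 in FPKM, had 8.50, 8.25 and 8.57 FPKM in A2ARKO libraries, against 9.30, 10.08 and 9.90 FPKM in WT libraries. Atf1 was lower without overlap, by a log2 fold change of -0.19 that did not pass (limma adjusted p = 0.178). Crem, whose locus gives activators and the inducible repressor ICER, had 1.24, 1.46 and 1.47 FPKM in A2ARKO libraries, against 0.91, 1.16 and 1.19 FPKM in WT libraries. It was higher without overlap, by 0.20 on the log2 scale (limma adjusted p = 0.308), it overlapped after rescaling, and gene-level values do not separate its products.

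All 3 CRTC coactivators, which dock on CREB once they reach the nucleus, had groups that did not overlap, in opposite directions. Of all tested genes 32.9% did not overlap either. None of the 3 passed the limma test, and 2 had an unadjusted p below 0.05, beside 24.7% of all tested genes. Crtc3 had 3.10, 3.07 and 3.08 FPKM in A2ARKO libraries, against 4.71, 4.33 and 3.66 FPKM in WT libraries (log2 fold change -0.35, SE 0.10, limma adjusted p = 0.0991, and 0.0435 without WT library 3). Crtc1 had 3.15, 2.72 and 2.77 FPKM in A2ARKO libraries, against 3.76, 3.59 and 3.45 FPKM in WT libraries (log2 fold change -0.25, limma adjusted p = 0.152). Crtc2, the most abundant, was on the higher side. It had 10.41, 9.44 and 9.76 FPKM in A2ARKO libraries, against 9.18, 8.59 and 8.35 FPKM in WT libraries (log2 fold change 0.16, limma adjusted p = 0.263). Crtc2 overlapped after rescaling, while Crtc1 and Crtc3 stayed lower without overlap. The CRTC sum was 15.8 ± 0.74 FPKM in A2ARKO and 16.5 ± 1.095 FPKM in WT, with overlap, while the share of Crtc2 in it was 62.3% ± 0.30 in A2ARKO and 52.7% ± 1.15 in WT.

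The salt-inducible kinases, which phosphorylate the CRTC proteins, had log2 fold changes above 0, also after rescaling. None passed the limma test, and Sik2 had an unadjusted p below 0.05, beside 24.7% of all tested genes. Sik2 had 5.98, 4.72 and 4.78 FPKM in A2ARKO libraries, against 2.99, 3.23 and 3.81 FPKM in WT libraries. The groups did not overlap, at a log2 fold change of 0.50 (SE 0.12, limma adjusted p = 0.0712, and 0.0562 to 0.201 with 1 library left out). Of its exon bases 15.0% also lie in Ppp2r1b on the opposite strand. Sik3 averaged 10.8 ± 0.69 FPKM in A2ARKO and 9.58 ± 0.98 FPKM in WT, and the groups overlapped (log2 fold change 0.16, limma adjusted p = 0.371). Sik1, itself a CREB target, had 5.26, 4.32 and 3.78 FPKM in A2ARKO libraries, against 1.86, 6.32 and 3.40 FPKM in WT libraries. The WT libraries enclosed the A2ARKO libraries, and the log2 fold change of 0.26 had an interval from -0.56 to 1.09. Summed over the 3 kinases, FPKM were 22.75, 19.18 and 19.38 in A2ARKO libraries and 15.20, 18.03 and 17.13 in WT libraries, without overlap, but the sums overlapped after rescaling, as did the values of Sik2.

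The NR4A genes were lower in every A2ARKO library than in any WT library. Neither Nr4a1 nor Nr4a2 passed the limma test, although both had an unadjusted p below 0.05, beside 24.7% of all tested genes. Nr4a1 (chr15:101254269-101274795, plus strand, mm10) had 3.40, 2.61 and 1.94 FPKM in A2ARKO libraries, against 4.48, 7.28 and 6.75 FPKM in WT libraries. Its log2 fold change was -0.97 (SE 0.21, interval -1.49 to -0.45, limma adjusted p = 0.0581), just outside the threshold, and the adjusted p was 0.0307 without WT library 1 and 0.103 to 0.202 without each other library. Nr4a2 (chr2:57106830-57124003, minus strand) had 1.36, 1.31 and 1.24 FPKM in A2ARKO libraries, against 1.84, 2.89 and 2.19 FPKM in WT libraries. Its log2 fold change was -0.51 (SE 0.14, limma adjusted p = 0.0873, and 0.0470 without WT library 1). Nr4a3 (chr4:48045153-48086447, plus strand) lay below the level for testing, at 0.12, 0.09 and 0.11 FPKM in A2ARKO libraries, against 0.29, 0.28 and 0.35 FPKM in WT libraries. These values rest on about 31 to 110 reads per library, and an exact two-sided permutation test gave p = 0.1, the smallest possible. Summed over the 3 genes, the level was 4.06 ± 0.80 FPKM in A2ARKO and 8.78 ± 1.97 FPKM in WT, a ratio of 0.462 that stayed between 0.411 and 0.511 with 1 library left out and was 0.421 after rescaling. NR4A genes respond to cell handling as well as to cAMP. The dissociation response genes were split. Of the 11 tested, 6, among them Junb, Socs3 and Jun, were higher in A2ARKO without overlap. Egr1, Ier2 and the untested Fosb were lower without overlap, as the NR4A genes were. Over all tested genes 18.0% were higher and 14.9% lower without overlap. Egr1 had 9.28, 9.20 and 8.21 FPKM in A2ARKO libraries, against 9.85, 19.05 and 12.11 FPKM in WT libraries, and Fos, Atf3 and Zfp36 had fold changes below 0 with overlap. Fos, Fosb, Junb and Egr1 are also listed among the further known CREB targets below, so these lists are not independent. The part of cell handling in the NR4A values was not tested.

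**Figure D5:**
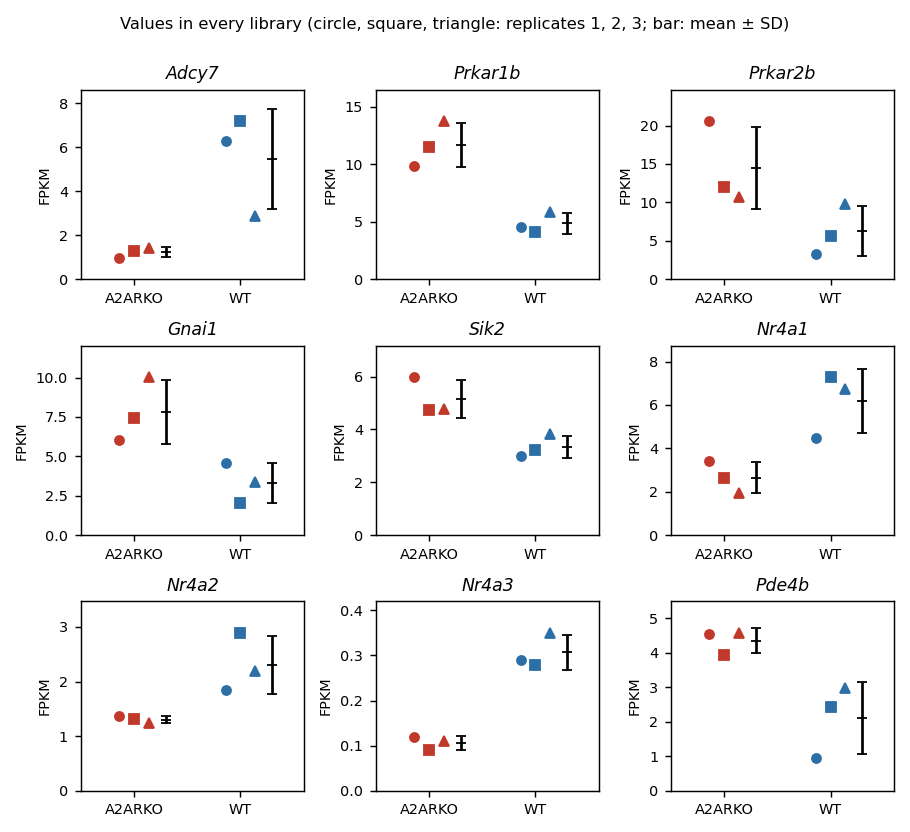
FPKM of 9 members in every library on linear axes that start at 0, with A2ARKO left of WT, symbols for replicates 1 to 3 and a bar for the mean ± SD. The groups do not overlap in any of the 9 panels: Adcy7 and the NR4A genes are lower in A2ARKO, and Prkar1b, Prkar2b, Gnai1, Sik2 and Pde4b are higher. Of the 9, Adcy7 and Prkar1b passed the test.

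The other cAMP-responsive members overlapped between the groups. Rgs2, which shortens G protein signals and is induced through CREB, had 5.48, 6.80 and 7.88 FPKM in A2ARKO libraries, against 6.27, 7.06 and 5.45 FPKM in WT libraries (log2 fold change 0.08, interval -0.27 to 0.44, and -0.02 after rescaling). Ppargc1a, the coactivator that drives mitochondrial genes, had 0.82, 0.55 and 0.51 FPKM in A2ARKO libraries, against 0.78, 0.70 and 0.48 FPKM in WT libraries, below the level for testing. Of the 5 targets, the 3 NR4A genes were lower without overlap, among them the untested Nr4a3, beside 14.9% of all tested genes, and the other 2 overlapped.

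Around the members, 9 lists of further pathway genes held 164 genes of the table, of which 97 were tested, 6 rose and none fell, beside 5.08% of all tested genes called. At an unadjusted p below 0.05 there were 30 of the 97, beside 24.7% of all tested genes. Adora1 and Il6, both among the 6, passed the filter on low values through their A2ARKO libraries, where they were high. Of 24 tested known CREB targets outside the members, 4 rose, none fell and 20 did not pass, with a median log2 fold change of 0.42. At an unadjusted p below 0.05 there were 12 of the 24, beside 24.7% of all tested genes. The groups did not overlap for 10 higher and 2 lower, beside 18.0% higher and 14.9% lower of all tested genes. Ptgs2, the inducible cyclooxygenase, had 8.96, 8.41 and 7.70 FPKM in A2ARKO libraries, against 1.76, 1.05 and 1.39 FPKM in WT libraries (log2 fold change 1.97, limma adjusted p = 0.00319). Il6, an inflammatory cytokine, had 10.91, 8.67 and 10.77 FPKM in A2ARKO libraries, against 0.07, 1.45 and 0.87 FPKM in WT libraries (log2 fold change 2.70, limma adjusted p = 0.0119). Every A2ARKO library was above every WT library for these 2 genes, and Ptgs2 stayed past the threshold when any 1 library was left out (limma adjusted p 0.00576 to 0.0320). Leaving out any 1 A2ARKO library ended the call of Il6 (limma adjusted p 0.0601 to 0.0698).

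Cebpb, a bZIP transcription factor, averaged 43.8 ± 2.29 FPKM in A2ARKO and 16.2 ± 5.39 FPKM in WT (log2 fold change 1.43, limma adjusted p = 0.0301), and 20.7% of its exon bases also lie in Tmem189 on the opposite strand. Btg2, an antiproliferative gene, averaged 27.4 ± 2.39 FPKM in A2ARKO and 12.5 ± 2.18 FPKM in WT (log2 fold change 1.08, limma adjusted p = 0.0170). Cebpb and Btg2 did not pass without any 1 A2ARKO library (limma adjusted p 0.0697 to 0.119), nor did Cebpb with no filter (0.0677). All 4 are also textbook targets of inflammatory or stress signals. Known CREB targets therefore lay on both sides: these 4 rose, and the 3 NR4A genes were lower in every A2ARKO library without passing the test. Gem, another CREB target and chosen after its values were seen, had 2.52, 2.49 and 1.75 FPKM in A2ARKO libraries, against 3.95, 10.75 and 9.11 FPKM in WT libraries, lower without overlap (log2 fold change -1.37, limma adjusted p = 0.0712).

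Upstream of the cyclases, 8 Gs-coupled receptor genes were tested and none passed the limma test. Of these 2 had an unadjusted p below 0.05, beside 24.7% of all tested genes. Of 8 tested Gi-coupled receptor genes 3 had an unadjusted p below 0.05, and 1 was called higher. That gene, Adora1, which encodes the Gi-coupled adenosine A1 receptor, had 1.04, 1.01 and 2.03 FPKM in A2ARKO libraries, against 0.16, 0.11 and 0.05 FPKM in WT libraries (log2 fold change 1.07, limma adjusted p = 0.0356). It entered the test only through its A2ARKO values, and 20.1% of its exon bases lie in Mybph on the opposite strand. Adora1 passed without WT library 1 (limma adjusted p = 0.0456) but not without any other library (0.0576 to 0.113), nor with no filter (0.0734) or quantile normalization (0.0586). Adora2b, the other Gs-coupled adenosine receptor, had 2.69, 1.82 and 1.73 FPKM in A2ARKO libraries, against 0.25, 1.64 and 0.88 FPKM in WT libraries, higher without overlap and not past the test (log2 fold change 0.73, limma adjusted p = 0.187). Adrb3, the beta-3 adrenergic receptor of fat cells, averaged 3.07 ± 1.40 FPKM in A2ARKO and 1.06 ± 0.47 FPKM in WT (log2 fold change 0.95, limma adjusted p = 0.134), beside the higher adipocyte markers of A2ARKO, and 24.9% of its exon bases also lie in Gm45470 on the opposite strand. Of 13 tested receptor kinases, arrestins and RGS genes 1 rose, and 4 had an unadjusted p below 0.05, beside the same 24.7%. Arrb1, an arrestin that uncouples receptors from G proteins, had 4.36, 4.32 and 3.89 FPKM in A2ARKO libraries, against 2.34, 2.30 and 2.55 FPKM in WT libraries (log2 fold change 0.61, limma adjusted p = 0.0207). All A2ARKO values of Arrb1 were above all WT values. It did not pass after rescaling (adjusted p = 0.113 in limma), with no filter (0.0636), without WT library 2 (0.0533) or without any 1 A2ARKO library (0.0822 to 0.126).

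The lists nearest to the members held no call, and 24.7% of all tested genes had an unadjusted p below 0.05. Of 9 further G alpha, cyclase and PKA genes none passed the limma test and 2 had an unadjusted p below 0.05. Pkia, a PKA inhibitor, had the lowest unadjusted p among them, with 1.93 ± 0.46 FPKM in A2ARKO and 4.55 ± 2.47 FPKM in WT (log2 fold change -0.85, limma adjusted p = 0.168). Next came Adcy2, a cyclase stimulated by G beta-gamma, with 5.86 ± 1.27 FPKM in A2ARKO and 8.54 ± 1.71 FPKM in WT (log2 fold change -0.48, limma adjusted p = 0.176). None of 4 further phosphodiesterases, 10 anchoring proteins and 7 other effectors passed the limma test, and 3, 1 and 0 of them had an unadjusted p below 0.05. The smallest adjusted p in these lists was 0.0922, for Pde5a, which degrades cyclic GMP and averaged 2.38 ± 0.15 FPKM in A2ARKO and 3.52 ± 0.51 FPKM in WT. Among the further phosphodiesterases Pde1b, a calmodulin-dependent enzyme, came next (log2 fold change 0.45, limma adjusted p = 0.186). The smallest adjusted p values in the anchoring proteins were 0.183 for Akap13 (log2 fold change -0.25) and 0.212 for Ezr (-0.52). In the effectors they were 0.224 for Rapgef2 (log2 fold change 0.29) and 0.304 for Rap1a (-0.17). Among 14 partners of CREB and the salt-inducible kinases none passed the limma test and 3 had an unadjusted p below 0.05. The closest were Mef2a, a transcription factor (log2 fold change -0.46, limma adjusted p = 0.0773), and Hdac5, a class IIa histone deacetylase phosphorylated by salt-inducible kinases (log2 fold change -0.38, limma adjusted p = 0.0824). Both were lower in every A2ARKO library than in any WT library.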

How the data were processed

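The authors deposited 1 table of FPKM values, rounded to 2 decimals, for 6 RNA-seq libraries of litter pools, 3 per genotype. HTSeq and the build mm10 are named in the submitters' processing notes. Sources used here do not state the aligner, annotation, gene lengths or strand setting, so overlapping genes cannot be told apart. FPKM are relative to gene length and library total, so a very abundant transcript lowers the others.

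From these values, the 11595 genes that reached 1 FPKM in 3 libraries or more were tested with limma 3.58.1 in R 4.3.3 (lmFit, then eBayes with trend) on log2(FPKM + 1), without a replicate block. This scale understates the change of low genes. Benjamini-Hochberg adjustment ran over all tested genes, and the threshold was 0.05. The method was tested on simulated data with equal, independent noise in both genotypes. It was not tested at the wider WT spread of these data. P-values measure the spread between litter pools. Alternatives were a pseudocount of 0.1, no filter, a filter at 5 FPKM, 2 rescalings, a replicate block and leaving out each library. The members and all lists were chosen with earlier results of these data known. Every member is accounted for. Members are given in every library where they passed or, in a role with none past, for the 2 lowest unadjusted p. Of the further lists, called genes (up to 4) or, with none called, the 2 lowest p are named. Lists were described by counts and medians, with no set test.

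Approximate reads and depth came from the steps between low FPKM of genes up to 150 nt long, with GENCODE M21 exon lengths. At the step found, 99.6% to 100% of such values up to 10 reads were whole within 0.1 read. Positions are from the same annotation, and promoter windows are from RefSeq on GRCm38.p6. No libraries of a genotype agreed within sampling noise (the closest pair differed by 19.3 times it).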

Additional observations from a re-analysis of the deposited data

How the results depend on the processing

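The genes called numbered 589 of 11595 tested, 213 of 26442 when no filter was applied, 348 of 11587 after rescaling to the same library sum and 2 of 11595 with a replicate block; the genes shared between these fits were not counted. The members called were 0 with no filter, 1 at a filter of 5 FPKM (where 18 members were tested) and 0 with the replicate block. Of the pathway genes, 3 were called with no filter and 0 with the block. Adora2a stayed at a log2 fold change of -2.25 with no filter and with the block, but its limma adjusted p was 0.0533 and 0.121. With 1 library left out, 50 to 900 genes, 0 to 5 members and 1 to 13 pathway genes were called, and the fold change of Adora2a ran from -2.60 to -1.99. Members reached 5 without WT library 1 (Gnai1, Nr4a1, Nr4a2, Prkar1b and Rapgef3) and 3 without WT library 3 (Adcy7, Crtc3 and Prkar1b). They were 0 without WT library 2 or any A2ARKO library. Each of these fits has 1 library fewer than the main fit, and the cause of the differing counts was not tested. The fold change of Akap12 ran from -1.08 to 0.22 with 1 library left out, and was above 0 without A2ARKO library 3 (0.01) or WT library 3 (0.22). Over 34 named genes, 339 of 389 repeats gave the same direction and side of the threshold, 42 lost the call, 6 gained it and 2 changed direction. Only the 2 members and 6 pathway genes called in the main fit could lose a call, so all 42 losses fell on them. Most of the 339 are uncalled genes that stayed uncalled, and that count does not measure how stable the calls are. The labels do not say whether same-numbered litters of the genotypes were handled together. Same-numbered libraries deviated from their group means with correlations of -0.521, -0.325 and -0.387. With 3 libraries a group that differ widely in marker levels, these values cannot show whether the litters were paired. The block is therefore a fit on a shared number whose meaning is not given. Depth limits Nr4a3, Rapgef4 and Pde4c most, and values near 0 carry the 2-decimal rounding. The ratios of summed NR4A genes and of PKA subunits, and the overlaps after rescaling, were added after seeing the data.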
